A study of Homo sapiens with 12 samples.

Results

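Of the 16389 genes counted in HepG2, an established line of human liver cancer cells, 50 encode synaptotagmins, SNAREs and their partners in vesicle release. They were taken by gene symbol and not by their measured values: SYT, SYTL, STX, STXBP, SNAP23, SNAP25, SNAP29, SNAP47 and SNAP91, VAMP, SYN, CPLX, SV2 and DNM genes, with SNPH. The 50 genes are 15 syntaxins, 8 synaptotagmins, 7 VAMPs, 6 syntaxin-binding proteins, 4 synaptotagmin-like proteins, 3 SNAP proteins, 2 complexins, 2 dynamins, 1 SV2 protein, 1 synapsin and syntaphilin. Other symbols of these families, among them SNAP25, SNAP91, SYN1 and SYT1, are not analysed here.

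The cells, from the ATCC at passage 9, were kept for 48 h in medium with 5.5 mM glucose (LG) or 20 mM glucose (HG). In a second pair of groups, LGV and HGV, cells in the same media were then given 1 mM valproic acid (VPA), an inhibitor of histone deacetylases, for another 12 h. Each of the 4 groups has 3 libraries of poly(A)-selected RNA. One cell line was used, no source states whether the libraries of a group came from separate cultures or when the untreated cells were harvested, and p-values therefore measure the spread between these libraries.

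Membranes fuse when SNARE proteins on a vesicle (VAMPs) zip together with SNAREs on the target membrane (syntaxins and SNAP proteins). Synaptotagmins sense calcium on the vesicle, complexins and syntaxin-binding proteins hold or release the SNARE complex, and dynamins cut new vesicles from the membrane during endocytosis. Hepatocytes use the widely expressed members for the constitutive secretion of plasma proteins and for traffic to the bile canaliculus and lysosome, while others of these genes are best known for the calcium-triggered release of neurotransmitters and hormones.

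Total counts ran from 29798442 to 45572694 per library, and levels are given as CPM, which relate a count to its TMM-adjusted library total. The floor of 3 reads amounted to 0.0713 to 0.112 CPM, and it covers counting error only. All 8 hepatocyte markers examined had reads, with summed levels of 46500 to 54900 CPM in untreated libraries, 41300 to 54900 in HGV and 36500 to 37200 in LGV, where 5 of the 8 were lower than in LG. In HGV against HG HNF4A (-0.46 on the log2 scale, FDR 0.00141) and FGB (-0.50, FDR 0.0353) were lower and TTR (0.51, FDR 0.00914) was higher. Of 13 neuroendocrine markers, 8 had no row in the table analysed here, among them CHGA, SCG2, SCG3 and INSM1, and the other 5 summed to 46.3 to 57.4 CPM in untreated and 63.3 to 72.4 CPM in VPA-treated libraries. In that list ENO2 was higher and SCG5 lower with VPA in both glucose conditions. Of 6 fibroblast, 4 haematopoietic and 4 endothelial markers, 2 of each had a row, and PTPRC, CD68, PECAM1, KDR, COL3A1 and DCN had none. The fibroblast pair summed to 37.9 to 58.3 CPM in LG, 32.2 to 40.5 in LGV, 18.8 to 29.3 in HG and 26.3 to 32.9 in HGV, with COL1A1 higher in both VPA comparisons and PDGFRB lower in LGV against LG. The endothelial pair, VWF and CDH5, summed to 2.3 to 2.99 CPM in LG, 2.24 to 3.09 in LGV, 2.21 to 3.71 in HG and 3.83 to 4.85 in HGV, above every other library, and CDH5 was higher in HGV against HG (1.65, FDR 0.00133). The haematopoietic pair, LYZ and CD14, summed to 1070 to 1420 CPM in LG, 909 to 1060 in LGV, 1240 to 1390 in HG and 1440 to 1550 in HGV, and CD14 was lower in HGV against HG (-0.56, FDR 0.0218). COL1A1 and CDH5 averaged under 10 reads in the untreated libraries and so could enter the table only by rising with VPA. The part of other cell types in the results was not tested, and in bulk RNA fewer cells and less RNA per cell cannot be told apart. Libraries of a group differed by more than sampling noise in every pair.

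Most of these genes that changed with VPA rose. Between HGV and HG, 28 of the 50 were higher and 2 lower at an FDR of 0.05 or less (the Benjamini-Hochberg adjusted p of edgeR's quasi-likelihood test over all genes tested). Of all 16188 tested genes 46.1% were called, 25.8% as higher and 20.2% as lower. Fold changes are given as log2 values with their standard errors (SE). Between LGV and LG, 27 were higher and 2 lower, against 41.6% of 15944 genes called, 21.7% and 19.9% in these directions. In both glucose conditions 23 members rose and 2 fell, and no member changed in opposite directions. How many of all genes were called in both conditions was not counted, so nothing about these genes in particular is read from this. The median log2 fold change of the members was 0.54 in HGV against HG and 0.45 in LGV against LG, beside 0.025 and -0.0057 for all tested genes. With library size alone as the scaling, the medians of all genes moved to 0.15 and 0.16 and those of the members to 0.66 and 0.61. The share of higher genes among all genes called then rose from 56.1% to 68.1% and from 52.1% to 69.7%.

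A gene entered the deposited table only with enough reads over the 12 libraries, so a gene nearly silent without VPA could enter only by rising. The 6 members SYT2, SYT5, SYT12, SYT17, STX11 and SNPH had a mean under 10 reads in the 6 untreated libraries. The member medians given above include them, under both scalings, and were not computed without them. Of the other 44, 23 were higher and 2 lower in HGV against HG, and 21 higher and 2 lower in LGV against LG. Among all genes with a mean of at least 10 untreated reads, 22.7% were higher and 21.3% lower in the first comparison, and 19% and 20.8% in the second.

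**Figure D1:**
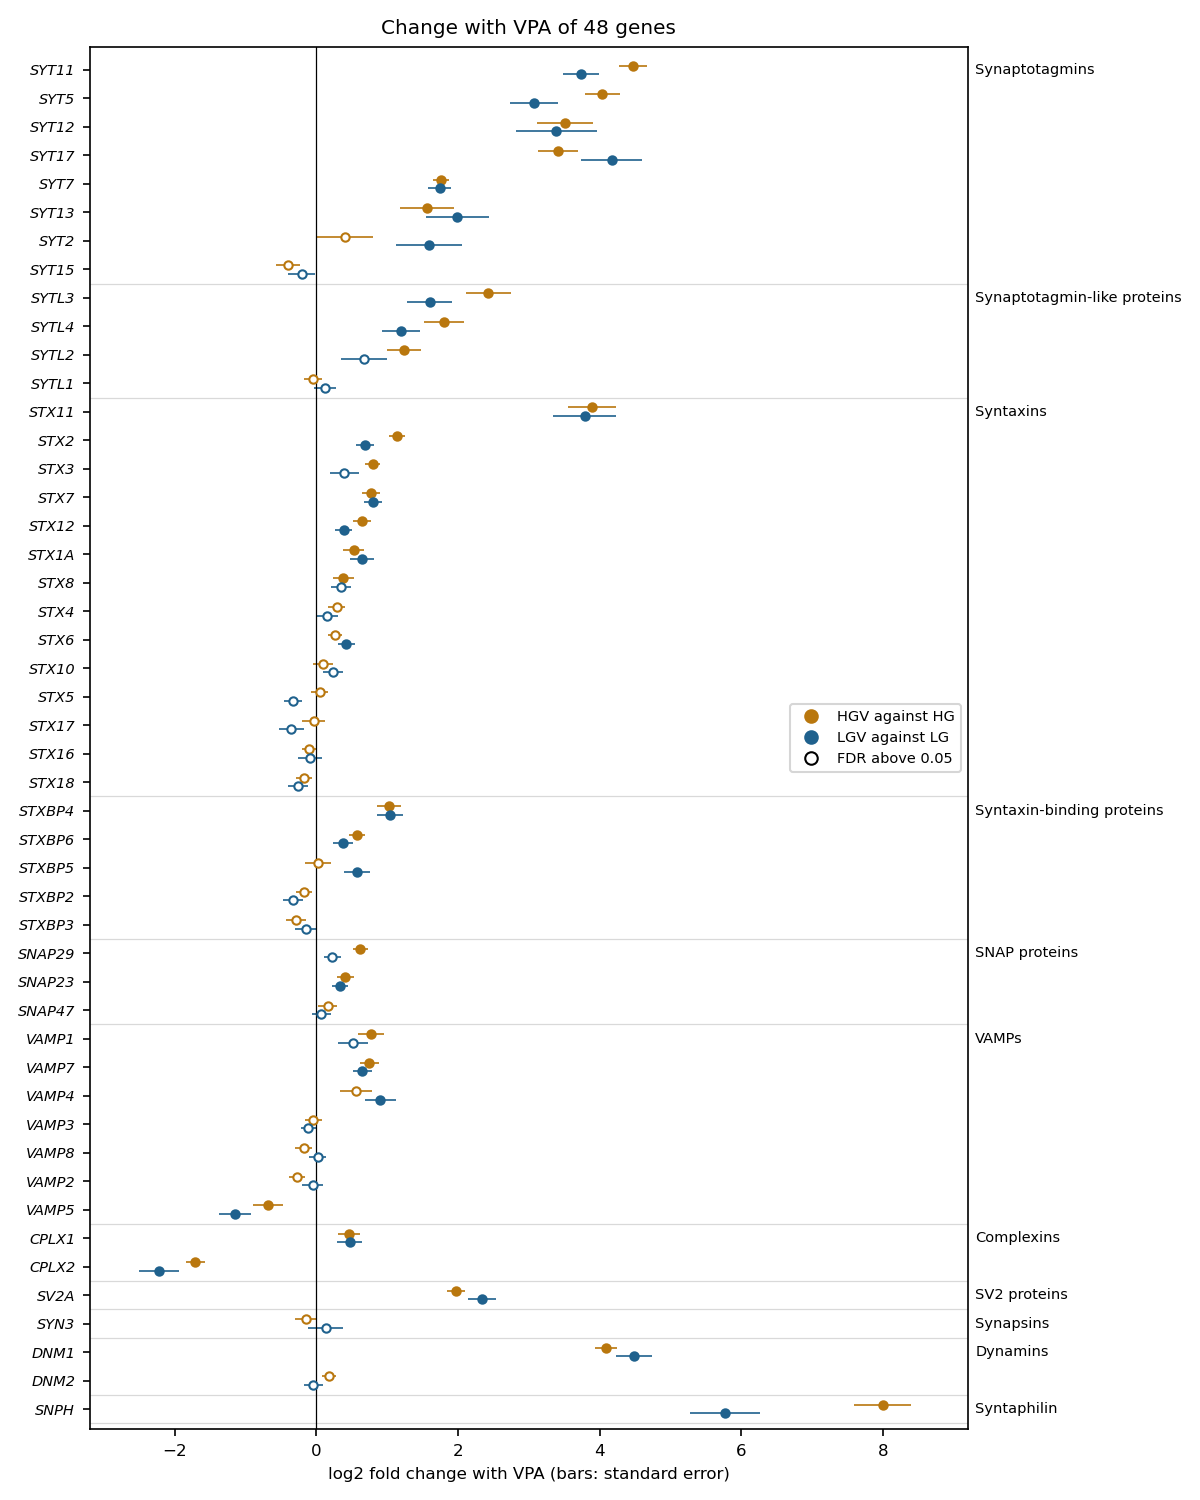
Log2 fold change with VPA (x axis) of 48 of the 50 genes, grouped by role, in high glucose (brown) and low glucose (blue), with standard errors as bars. Filled points have an FDR of 0.05 or less. SYT5, SYT11, SYT12, SYT17, DNM1, STX11 and SNPH lie farthest to the right, and CPLX2 and VAMP5 are the filled points left of 0. For SYT5, SYT12, SYT17, STX11 and SNPH the entry filter fixes the direction.

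Among the 44 members with at least 10 untreated reads, Spearman's rho between the mean CPM in LG, whose libraries are not in that comparison, and the log2 fold change of HGV against HG was -0.48, and across the 15331 tested genes with as many reads it was -0.241. The 6 members under 10 reads are left out of it because the entry filter fixes their direction, and the same filter may shape the rest in part. The members share libraries and are not independent, so this is a description only.

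RefSeq promoter windows on GRCh38.p14, read as the 250 bases before the annotated start, were matched by symbol to 39 of the 50 members (56 windows, those on chromosome Y left out). The windows of 4 genes that rose by more than 10-fold and of CPLX2, which fell, are shown 5′ to 3′ on the strand of the gene, with CpG dinucleotides in capitals. They lie at chr20:1266044-1266293 (plus strand) for SNPH, chr9:128203129-128203378 (plus) for DNM1, chr1:155859317-155859566 (plus) for SYT11, chr6:144150267-144150516 (plus) for STX11 and chr5:175796283-175796532 (plus) for CPLX2.
SNPH: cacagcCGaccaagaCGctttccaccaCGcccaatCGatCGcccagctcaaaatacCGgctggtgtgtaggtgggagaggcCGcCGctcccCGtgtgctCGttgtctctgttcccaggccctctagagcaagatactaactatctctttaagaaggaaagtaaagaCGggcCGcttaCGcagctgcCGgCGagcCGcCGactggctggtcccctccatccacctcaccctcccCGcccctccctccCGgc
DNM1: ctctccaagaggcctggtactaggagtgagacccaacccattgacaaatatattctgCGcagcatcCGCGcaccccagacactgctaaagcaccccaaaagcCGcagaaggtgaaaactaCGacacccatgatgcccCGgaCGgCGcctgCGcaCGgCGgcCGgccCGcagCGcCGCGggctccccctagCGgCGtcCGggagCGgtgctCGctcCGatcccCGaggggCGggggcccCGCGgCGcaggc
SYT11: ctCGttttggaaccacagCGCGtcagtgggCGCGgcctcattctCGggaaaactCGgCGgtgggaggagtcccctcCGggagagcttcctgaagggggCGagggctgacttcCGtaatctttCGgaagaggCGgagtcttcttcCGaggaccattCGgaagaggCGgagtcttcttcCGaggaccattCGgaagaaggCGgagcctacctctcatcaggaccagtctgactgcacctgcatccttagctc
STX11: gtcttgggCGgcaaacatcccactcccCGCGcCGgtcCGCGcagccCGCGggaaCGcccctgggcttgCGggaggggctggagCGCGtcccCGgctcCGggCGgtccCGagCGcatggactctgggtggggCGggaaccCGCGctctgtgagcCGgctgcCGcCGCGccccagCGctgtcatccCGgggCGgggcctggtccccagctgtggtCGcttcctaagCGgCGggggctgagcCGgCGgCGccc
CPLX2: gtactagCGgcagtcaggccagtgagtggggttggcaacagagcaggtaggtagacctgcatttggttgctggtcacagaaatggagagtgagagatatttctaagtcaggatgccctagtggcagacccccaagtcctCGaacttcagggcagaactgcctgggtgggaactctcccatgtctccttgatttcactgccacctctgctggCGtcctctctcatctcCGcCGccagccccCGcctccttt
The windows of STX11, DNM1, SYT11 and SNPH held 33, 27, 19 and 19 CpGs, with ratios of observed to expected CpG of 0.868, 0.933, 0.848 and 0.825, while that of CPLX2 held 6, with a ratio of 0.298. The median ratio was 0.798 over the member windows and 0.558 over all 34961 windows. By call, the median was 0.779 (range 0.0799 to 0.946) over the 26 windows of members higher in HGV against HG. It was 0.831 (range 0.257 to 1.06) over the 28 windows of members not called there. The GC box, searched as GGGCGG on both strands, was in 38 of the 56 member windows (67.9%) and in 42.7% of all windows. By call, it was in 15 of the 26 windows (57.7%) of members higher in HGV against HG. Among the 28 windows of members not called there, 22 held it (78.6%). It occurred 4 times in the window of STX11, once each in those of DNM1 and SNPH, and in neither SYT11 nor CPLX2. The left part of the RE1 element bound by the repressor REST, searched as TTCAGCACC on both strands, was in no member window and in 0.289% of all windows. The cyclic AMP response element TGACGTCA was in 2 member windows, those of STX12 and STXBP3 (3.57%, against 1.65% of all). These are matches of letters and not measured binding.

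Of the 8 synaptotagmins, 6 were higher in HGV against HG and 7 in LGV against LG, and none was lower. Of all tested genes 25.8% and 21.7% were higher. SYT2, SYT5, SYT12 and SYT17 are among the 6 members under 10 untreated reads, whose direction the entry filter fixes. Of the others, SYT7, SYT11 and SYT13 were higher in both comparisons and SYT15 was called in neither. SYT11 (ENSG00000132718, chromosome 1 of GRCh37 from 155829358 to 155854990), a member that does not act as a calcium sensor and takes part in vesicle recycling, changed most in HG. It had 0.919, 1.56 and 1.09 CPM in the HG libraries and 26.6, 29.6 and 22.97 in HGV, and 2.69, 2.07 and 1.12 CPM in LG and 25.6, 28.9 and 21.9 in LGV. Every VPA-treated library lay far above every untreated one. The log2 fold change was 4.47 (SE 0.20, FDR 1.51e-08) in HG and 3.74 (SE 0.25, FDR 6.23e-08) in LG.

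SYT5 (ENSG00000129990, chromosome 19 from 55682564 to 55691657), a calcium sensor of dense-core vesicles, had 0.222, 0.269 and 0.196 CPM in HG and 3.68, 3.83 and 3.91 in HGV. In low glucose it went from 0.262, 0.200 and 0.255 CPM in LG to 2.49, 1.66 and 1.87 in LGV. These are rises of 4.04 (SE 0.25, FDR 1.21e-07) and 3.07 (SE 0.34, FDR 5.61e-06) on the log2 scale, and the treated levels were also higher in HGV than in LGV without overlap. SYT17 (ENSG00000103528, chromosome 16 from 19179293 to 19279654), which has no transmembrane segment, reached the same range in both media, 2.48, 2.38 and 2.24 CPM in HGV and 2.58, 2.63 and 2.00 in LGV. It started from 0.254, 0.239 and 0.168 CPM in HG and from 0.0748, 0.250 and 0.0511 in LG, of which LG replicates 1 and 3 held 2 reads each. The log2 fold change was 3.41 (SE 0.28, FDR 1.17e-06) in HG and 4.17 (SE 0.43, FDR 3.18e-06) in LG, where it was 5.22 without LG replicate 2.

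SYT7, a high-affinity calcium sensor of lysosome and insulin granule fusion, was the synaptotagmin with the highest level per length in LG (1.30 CPM per kilobase of exon), HG (1.93) and HGV (6.54). In LGV SYT11 had 4.92 ± 0.678 (SD, n = 3) and SYT7 4.29 ± 0.381 CPM per kilobase, closer than the larger SD. Its level rose from 14.6 ± 1.19 CPM (SD, n = 3) in HG to 49.4 ± 0.472 (SD, n = 3) in HGV and from 9.82 ± 2.26 (SD, n = 3) in LG to 32.4 ± 2.88 (SD, n = 3) in LGV. These are rises of 3.39-fold and 3.34-fold. SYT12 rose by 3.51 (SE 0.40, FDR 1.55e-05) and 3.38 (SE 0.57, FDR 0.000262) on the log2 scale from at most 9 reads in any untreated library. The first was 4.23 without HG replicate 2 and the second 2.73 without LG replicate 2. SYT13, which lacks the calcium-binding residues, rose by 1.56 (FDR 0.00514) in HG and 1.99 (FDR 0.0023) in LG. SYT2, a fast calcium sensor of neurons, stayed under 0.6 CPM in every library. It was called in LG alone, with 1.59 (SE 0.47, FDR 0.0132), against 0.40 (SE 0.41, FDR 0.456) in HG, and the LG call was lost without LG replicate 1 (FDR 0.0552) and its value was 2.19 without LG replicate 3, while in 2 of the 6 fits that left out a library it had too few reads to be tested. Exons of PPP1R12B on the other strand overlap 27.0% of its exon bases. SYT15 had log2 fold changes of -0.40 and -0.21, neither past the threshold, and its near-identical copy SYT15B covers 99.7% of its exon bases in the annotation, so that its count is uncertain.

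**Figure D2:**
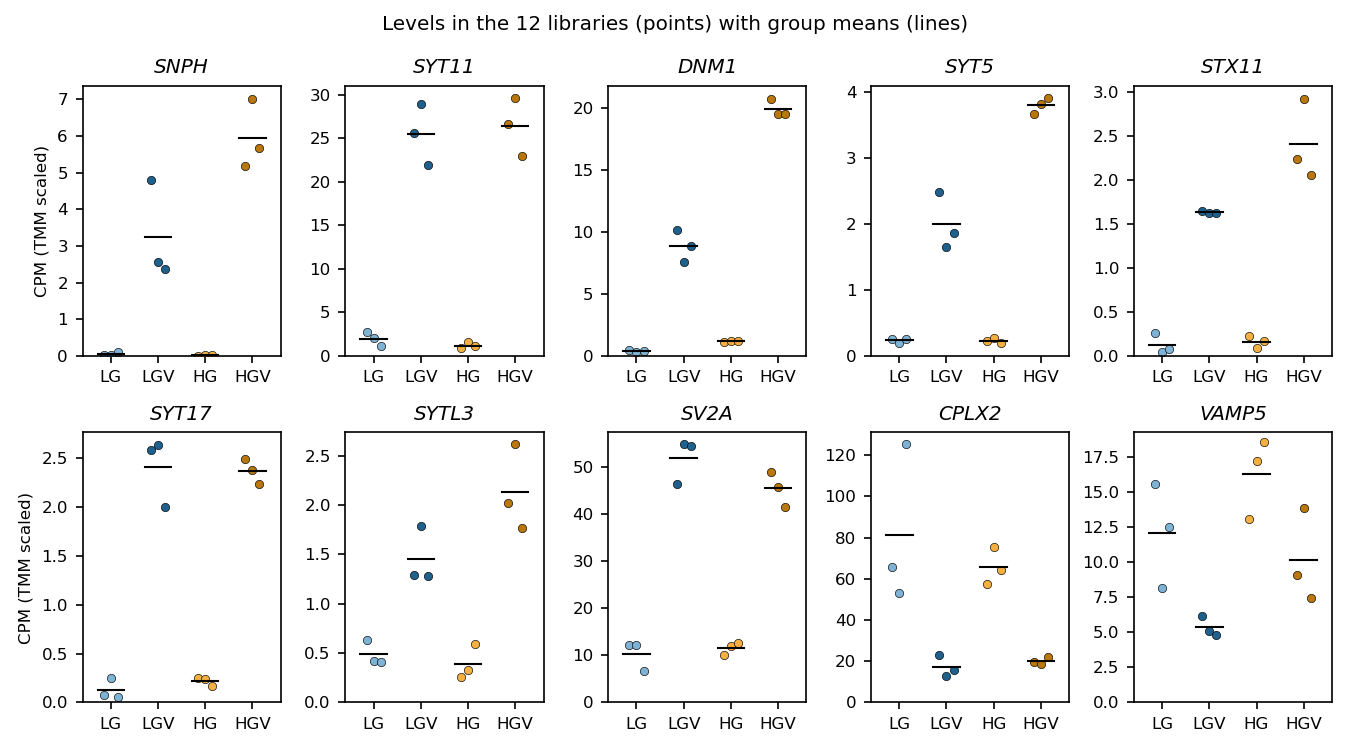
CPM (y axis, from 0) in the 3 libraries of each group (points) with the group mean (line) for the 8 members named for their rise and the 2 that fell. VPA-treated libraries (LGV, HGV) lie above all untreated libraries in the first 8 panels and below them for CPLX2, while for VAMP5 a treated library overlaps the untreated ones.

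Synaptotagmin-like proteins tether vesicles through the small GTPase Rab27, and 3 of 4 were higher in HGV against HG and 2 in LGV against LG. Among all tested genes 25.8% and 21.7% were higher in these comparisons. SYTL3 (ENSG00000164674, chromosome 6 from 159071046 to 159185908) had 0.254, 0.329 and 0.588 CPM in HG and 2.02, 2.62 and 1.76 in HGV, a log2 fold change of 2.43 (SE 0.32, FDR 5.74e-05). In LG it had 0.636, 0.424 and 0.408 CPM and in LGV 1.29, 1.79 and 1.28, a log2 fold change of 1.60 (SE 0.32, FDR 0.00107). Treated and untreated libraries were apart in both media. SYTL4, also called granuphilin, rose by 1.80 (FDR 0.000223) and 1.20 (FDR 0.00255), and exons of other genes, SRPX2 among them, overlap 39.0% of its exon bases on the other strand. SYTL2 rose by 1.24 (FDR 0.000979) in HG, with 0.67 (SE 0.32, FDR 0.112) in LG. SYTL1, whose level per length was the highest of the 4 in each group, had log2 fold changes of -0.05 and 0.12.

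Syntaxins of the plasma membrane include the neuronal STX1A, the widely expressed STX2, STX3 and STX4, and STX11, which serves granule release in lymphocytes. STX11 (ENSG00000135604, chromosome 6 from 144471624 to 144513076) had 0.222, 0.0897 and 0.168 CPM in HG and 2.24, 2.92 and 2.06 in HGV. It had 0.262, 0.0499 and 0.0766 CPM in LG and 1.65, 1.62 and 1.63 in LGV. No untreated library exceeded 7 reads and no treated one fell under 50. STX11 is among the 6 members under 10 untreated reads, whose direction the entry filter fixes, so its FDRs are no test of direction. The log2 fold change was 3.89 (SE 0.34, FDR 1.84e-06) in HG and 3.79 (SE 0.45, FDR 1.1e-05) in LG, the latter 4.62 without LG replicate 1.

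STX1A rose by 0.53 (FDR 0.0106) in HG and 0.64 (FDR 0.00813) in LG. The LG call of STX1A was lost without LGV replicate 3 (FDR 0.0674). STX2 rose by 1.14 (SE 0.11, FDR 4.29e-06) in HG and by 0.69 (SE 0.12, FDR 0.000436) in LG. STX3, an apical syntaxin of epithelia, rose by 0.79 (SE 0.10, FDR 4.03e-05) in HG and had 0.40 (SE 0.20, FDR 0.128) in LG, where LG replicate 2 had 143 CPM against 97.0 and 70.9 in replicates 1 and 3. STX4 had log2 fold changes of 0.28 and 0.15 (SEs 0.12 and 0.15), and neither was called.

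Among syntaxins of endosomes, STX7 rose in both media by nearly the same amount, 0.77 (FDR 0.000266) and 0.80 (FDR 0.000127). STX12 rose by 0.64 (FDR 0.0013) in HG and 0.38 (FDR 0.0237) in LG, and the second call was lost without LG replicate 1 (FDR 0.0868), LGV replicate 1 (FDR 0.0547) or LGV replicate 2 (FDR 0.0885). STX8 had 0.38 (FDR 0.0463) in HG, a call lost in 5 of the 6 fits that left out a library, all but that without HGV replicate 1, with an FDR of up to 0.17 without HGV replicate 2. STX6 of the trans-Golgi network was called in LG alone, with 0.42 (FDR 0.0116), and had 0.26 (FDR 0.0585) in HG. Syntaxins of the Golgi, endoplasmic reticulum and autophagosome were not called: STX5, STX10, STX16, STX17 and STX18 had log2 fold changes from -0.18 to 0.09 in HG and from -0.35 to 0.23 in LG. STX5, the Golgi syntaxin, was the one with the highest level per length, with group means of 22.1 to 28.7 CPM per kilobase. The read-through gene STX16-NPEPL1 covers 28.5% of the exon bases of STX16.

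Syntaxin-binding proteins clasp or block syntaxins. STXBP2, 30.4% of whose exon bases another gene shares on the same strand, had log2 fold changes of -0.18 and -0.33 and STXBP3 -0.29 and -0.14, none of them called. STXBP4, which binds STX4, rose by 1.03 (FDR 0.000386) and 1.04 (FDR 0.000414), with CTC-462L7.1 covering 26.6% of its exon bases on the same strand. STXBP6, or amisyn, rose by 0.57 (FDR 0.00117) in HG and 0.37 (FDR 0.0415) in LG. Its LG call was lost without LG replicate 1 (FDR 0.0997), LG replicate 2 (FDR 0.113) or any one of the LGV libraries (FDR 0.0551 to 0.116). STXBP5, or tomosyn, an inhibitor of SNARE assembly, had 0.57 (FDR 0.0228) in LG and 0.02 (SE 0.19, FDR 0.936) in HG. Its LG call was lost without LG replicate 1 (FDR 0.0815), LG replicate 3 (FDR 0.0566), LGV replicate 2 (FDR 0.0925) or LGV replicate 3 (FDR 0.0808).

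SNAP23 pairs with syntaxins at the plasma membrane outside neurons, and SNAP29 acts on internal membranes and autophagosomes. SNAP29 had 24.5, 25.4 and 24.9 CPM in HG and 38.6, 39.6 and 36.9 in HGV, a log2 fold change of 0.62 (SE 0.10, FDR 0.000314), and 0.22 (SE 0.12, FDR 0.157) in LG. SNAP23 had 0.41 (FDR 0.0144) in HG and 0.33 (FDR 0.0293) in LG. The first call was lost without HG replicate 2 (FDR 0.0696) or HG replicate 3 (FDR 0.0764), and the second without LG replicate 1 (FDR 0.0788), LG replicate 3 (FDR 0.0585), LGV replicate 2 (FDR 0.102) or LGV replicate 3 (FDR 0.111). Genes on the other strand, LRRC57 among them, overlap 27.6% of its exon bases. PI4KA and another gene on the other strand overlap 12.1% of those of SNAP29. SNAP47, with JMJD4 over 22.8% of its exon bases, had 0.16 and 0.07 (SEs 0.13 and 0.14) and was not called.

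Of the 7 VAMPs, 2 were higher (28.6%) and 1 lower (14.3%) in each VPA comparison. Among all tested genes 25.8% were higher and 20.2% lower in HGV against HG, and 21.7% and 19.9% in LGV against LG. VAMP7, which serves lysosome fusion, rose by 0.75 (FDR 0.000786) in HG and 0.65 (FDR 0.00146) in LG. VAMP1, a neuronal synaptobrevin, rose by 0.77 (FDR 0.00458) in HG and had 0.51 (SE 0.21, FDR 0.0656) in LG, while VAMP4 of the trans-Golgi network rose by 0.90 (FDR 0.0039) in LG and had 0.55 (SE 0.23, FDR 0.0627) in HG. VAMP8 and VAMP3, the highest of the 7 per length (84.6 and 40.2 CPM per kilobase in LG), had log2 fold changes between -0.18 and 0.02 and were not called, nor was VAMP2 (-0.27 and -0.05).

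VAMP5 (ENSG00000168899, chromosome 2 from 85811554 to 85820529), best known from muscle, fell. It had 15.6, 8.18 and 12.5 CPM in LG and 6.18, 5.13 and 4.83 in LGV, groups that did not overlap, and its log2 fold change was -1.15 (SE 0.22, FDR 0.000819). In high glucose it had 13.1, 17.3 and 18.6 CPM in HG and 9.11, 13.9 and 7.47 in HGV, where HGV replicate 2 lay above HG replicate 1, and the log2 fold change was -0.68 (SE 0.21, FDR 0.0191). That call was lost without HG replicate 2 (FDR 0.0545), HG replicate 3 (FDR 0.0672), HGV replicate 1 (FDR 0.0755) or HGV replicate 3 (FDR 0.0796).

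The 2 complexins, which clamp the SNARE complex, went opposite ways. CPLX2 (ENSG00000145920, chromosome 5 from 175223313 to 175311024) was the member with the largest fall. It had 57.5, 75.5 and 64.3 CPM in HG and 19.5, 18.8 and 22.2 in HGV, and 65.7, 52.9 and 125 CPM in LG and 23.2, 13.1 and 15.7 in LGV. All treated libraries lay below all untreated ones, although LG replicate 3 stood well above the other LG libraries. The log2 fold change was -1.71 (SE 0.13, FDR 5.23e-07) in HG and -2.22 (SE 0.28, FDR 1.92e-05) in LG. CPLX1 had 0.46 (FDR 0.0279) in HG and 0.47 (FDR 0.0456) in LG. Its HG call was lost without HG replicate 1 (FDR 0.109) or HGV replicate 1 (FDR 0.113), and its LG call without LG replicate 2 (FDR 0.0818), LG replicate 3 (FDR 0.125), LGV replicate 2 (FDR 0.169) or LGV replicate 3 (FDR 0.108). Per kilobase, CPLX2 was above CPLX1 in LG (11.6 against 3.79) and HG (9.37 against 4.95) and below it in LGV (2.47 against 5.19) and HGV (2.87 against 6.81).

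SV2A (ENSG00000159164, chromosome 1 from 149874870 to 149889396) is a glycoprotein of synaptic vesicles and the binding site of the antiepileptic drug levetiracetam. It had 10.1, 12.1 and 12.7 CPM in HG and 49.0, 45.9 and 41.6 in HGV, a rise of 1.97 on the log2 scale (SE 0.13, FDR 1.64e-07). In LG it had 12.3, 12.3 and 6.61 CPM and in LGV 46.5, 55.0 and 54.5, a rise of 2.34 (SE 0.20, FDR 4.63e-07). The treated groups of the 2 media overlapped each other and lay well above the untreated ones. SYN3, the synapsin analysed here, a protein that tethers vesicles to actin, had -0.14 and 0.13 (SEs 0.15 and 0.25) and was not called.

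DNM1 (ENSG00000106976, chromosome 9 from 130953934 to 131017527), the dynamin of neurons, had 1.11, 1.17 and 1.23 CPM in HG and 20.8, 19.5 and 19.6 in HGV, and 0.449, 0.324 and 0.434 CPM in LG and 10.1, 7.60 and 8.91 in LGV. The 4 groups were apart from each other, in the order LG, HG, LGV and HGV. Its log2 fold change with VPA was 4.09 (SE 0.15, FDR 6.64e-09) in HG and 4.48 (SE 0.26, FDR 2.14e-08) in LG. DNM2, the dynamin of most cells, had 0.18 (SE 0.10, FDR 0.168) and -0.04 (SE 0.13, FDR 0.824). DNM2 stayed the higher of the pair per length, with 6.47 CPM per kilobase in HGV against 1.86 for DNM1, where the values in HG were 5.71 and 0.109.

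SNPH (ENSG00000101298, chromosome 20 from 1246924 to 1289972) encodes syntaphilin, which binds a syntaxin and anchors mitochondria to microtubules in axons. It had 0, 1 and 1 reads in the HG libraries and 169, 295 and 193 in HGV, and 1, 1 and 4 reads in LG and 160, 79 and 89 in LGV. Summed over the libraries and scaled to their size, the ratio was 304 in HG (95% exact interval 83.9 to 2520, from 657 and 2 reads) and 57.0 in LG (25.9 to 156, from 328 and 6 reads), intervals that cover counting error only. Its FDR was 3.12e-08 in HG and 6.15e-07 in LG. SNPH is among the 6 members under 10 untreated reads, so the entry filter fixes its direction and these FDRs are no test of it. LG replicate 3 held 4 of the 6 reads in LG, and without it the fitted log2 value in LG went from 5.77 to 6.62, both of which depend on the prior count. LGV replicate 1 (4.80 CPM) stood above the other LGV libraries (2.57 and 2.38 CPM).

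**Figure D3:**
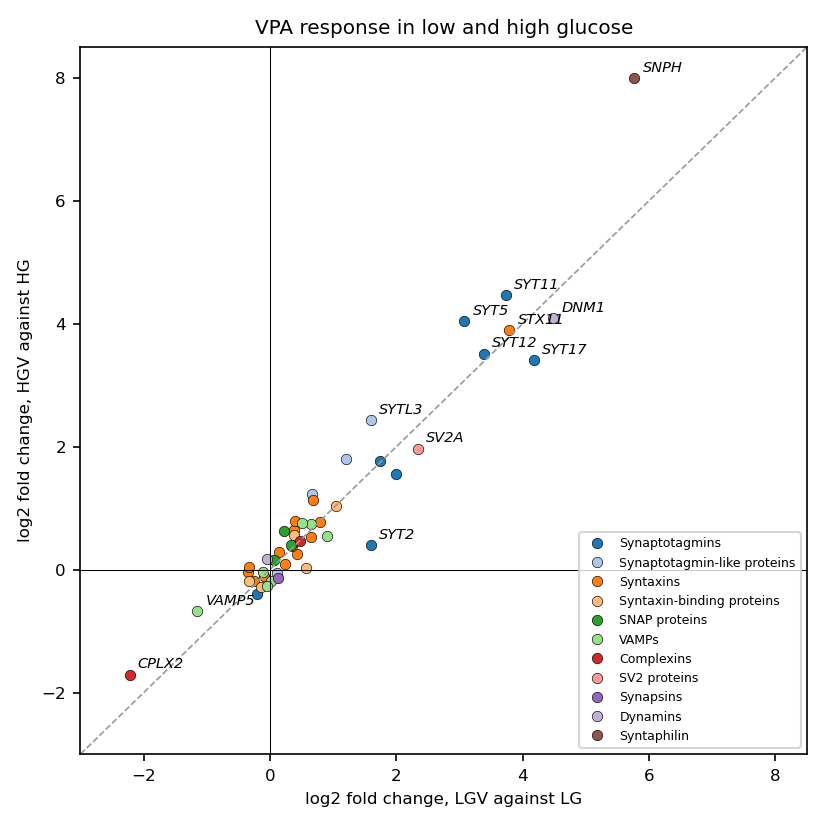
Log2 fold change with VPA in low glucose (x axis) and in high glucose (y axis) of 48 of the 50 genes, coloured by role, with the line of equal change dashed. The points follow the line, from CPLX2 at -2.22 and -1.71 to the group of SYT11, SYT5, DNM1 and STX11, and SNPH, with 2 reads in HG, lies above it.

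The responses to VPA in low and high glucose resembled each other. Of the 50 members, 45 had the same sign in both, as had 81.9% of the 15743 genes tested in both. Pearson's r of the log2 fold changes was 0.955 over the members and 0.914 over those genes, a description across genes that share libraries. The member values include the 6 members under 10 untreated reads, whose direction the entry filter fixes, and were not computed without them. Called in HG alone were 5 members (SNAP29, STX3, STX8, SYTL2 and VAMP1), and 4 in LG alone (STX6, STXBP5, SYT2 and VAMP4). Whether a response differed with glucose was tested with an interaction term in a fit of the 12 libraries. edgeR's quasi-likelihood test called none of the 50 members, and 0.0427% of all genes (0.0244% higher and 0.0183% lower). Of the 50, 6 had an unadjusted p under 0.05 in edgeR's test. The share of all genes under that value was not counted, so nothing is read from these 6. DESeq2 called none of the 50 either, while it called 162 of the 16389 genes where edgeR called 7. The smallest FDR was that of STX2, 0.264, for a difference of 0.46 on the log2 scale (SE 0.16). For SNAP29 the difference was 0.41 (SE 0.16, FDR 0.306) and for STXBP5 -0.54 (SE 0.29, FDR 0.505). These SEs leave room for differences of the size seen in single members.

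Fewer members were called for high glucose alone. Between HG and LG, 44 of the 50 had enough reads to be tested, and 3 were higher and 6 lower, where 24.7% of all 15452 tested genes were called, 12% as higher and 12.7% as lower. With library size as the scaling 3 were higher and 3 lower (2172 and 1297 of all genes, in place of 1854 and 1959). The count of 9 also depended on single libraries: it was 5 without HG replicate 2, 4 without HG replicate 3 and 12 without LG replicate 3. Between HGV and LGV, 14 members were higher and 7 lower, against 40.7% of 16208 genes called, 21.2% and 19.5% in these directions. These comparisons share no library, and 8 members were called in both, each in the same direction. How many of all genes were called in both was not counted, so nothing about the members as a set is read from this.

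Of the 8, 3 were higher in high glucose. DNM1 rose by 1.57 (SE 0.32, FDR 0.00162) between HG and LG and by 1.15 (SE 0.15, FDR 1.36e-05) between HGV and LGV. SYN3 had 3.70, 2.20 and 4.08 CPM in LG and 6.34, 6.998 and 5.66 in HG, groups that did not overlap, and rose by 0.96 (SE 0.23, FDR 0.00558) without VPA and by 0.65 (SE 0.18, FDR 0.00848) with it. SYT7 rose by 0.60 (SE 0.18, FDR 0.0205) and by 0.59 (SE 0.12, FDR 0.000779), and the first call was lost without HG replicate 2 (FDR 0.0884), HG replicate 3 (FDR 0.0556) or LG replicate 2 (FDR 0.0621).

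The other 5 were lower in high glucose. STX3 had 97.0, 143 and 70.9 CPM in LG and 44.9, 43.2 and 44.5 in HG, and 110.1, 150.2 and 145 CPM in LGV and 82.3, 75.7 and 71.8 in HGV. Its level fell by 1.21 on the log2 scale (SE 0.18, FDR 0.000122) without VPA and by 0.84 (SE 0.13, FDR 0.0001) with it, and the glucose groups were apart in both cases. STXBP5 had 29.9, 36.5 and 21.4 CPM in LG and 20.1, 15.3 and 16.0 in HG, a log2 fold change of -0.75 (FDR 0.0055), and -1.32 (SE 0.18, FDR 2.76e-05) between HGV and LGV. The first of these calls was just lost without HG replicate 3 (FDR 0.0501). DNM2 fell by 0.58 (SE 0.13, FDR 0.00363) and by 0.39 (SE 0.12, FDR 0.0176). The second of these was lost without HGV replicate 1 (FDR 0.0651), LGV replicate 2 (FDR 0.0624) or LGV replicate 3 (FDR 0.131). TMED1 on the other strand overlaps 5.18% of the exon bases of DNM2.

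SNAP23 and STXBP4 had log2 fold changes of -0.48 (FDR 0.0168) and -0.64 (FDR 0.0248) between HG and LG, and of -0.43 (FDR 0.00661) and -0.67 (FDR 0.00133) between HGV and LGV. With library size as the scaling, the HG against LG calls of SNAP23 (FDR 0.0615) and STXBP4 (FDR 0.0728) were lost. Both were also lost without HG replicate 2 (FDR 0.088 and 0.0717), HG replicate 3 (FDR 0.136 and 0.126), LG replicate 1 (FDR 0.0657 and 0.0716) or LG replicate 2 (FDR 0.0612 and 0.238). LG replicate 2 had 44.8 CPM of STXBP4 against 28.9 and 23.7 in LG replicates 1 and 3. STX5, with -0.35 between HG and LG (FDR 0.0482), had -0.01 between HGV and LGV. Its call was lost with library size (FDR 0.136), with no filter (FDR 0.0601), with all 12 libraries in 1 fit (FDR 0.0569), with the replicate block (FDR 0.106), and without any HG replicate (FDR 0.142, 0.111 and 0.121) or LG replicate 1 (FDR 0.235).

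**Figure D4:**
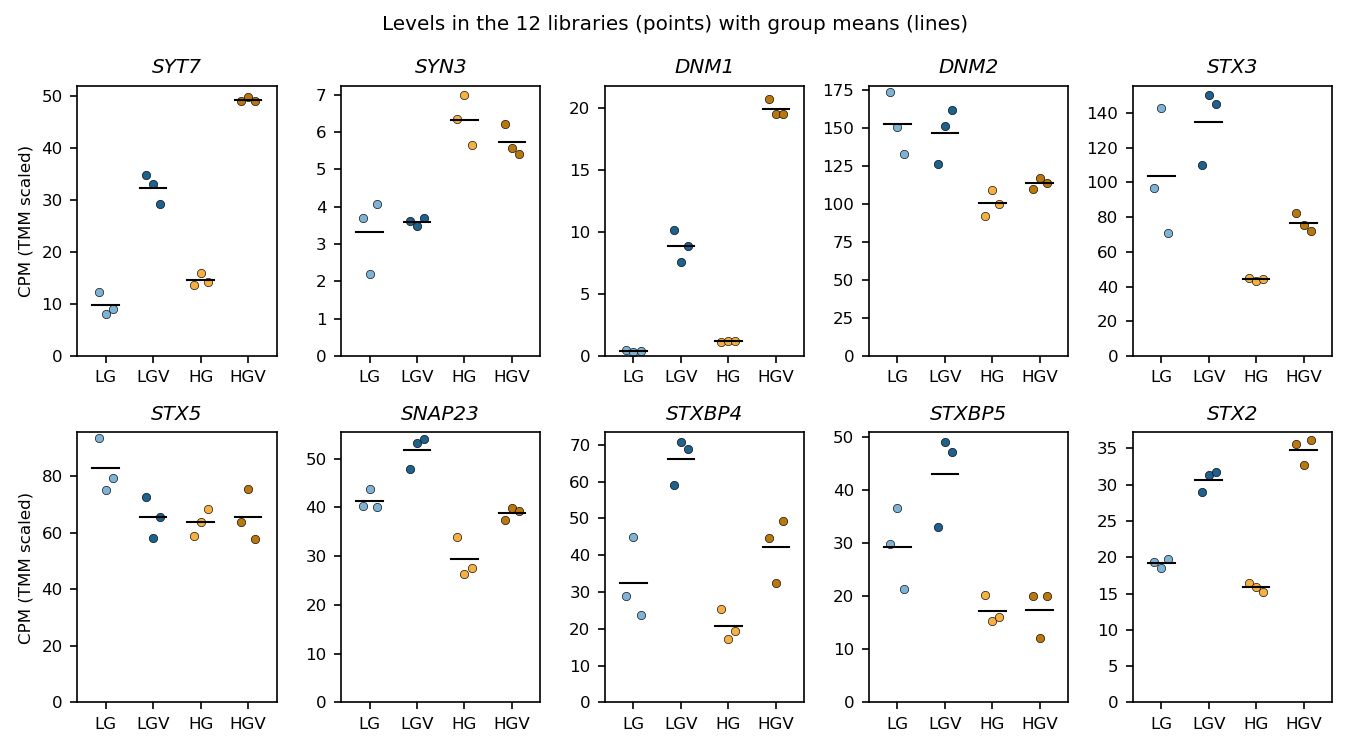
CPM (y axis) in the 3 libraries of each group (points) with the group mean (line) for the 9 members called between HG and LG and for STX2. DNM1, SYN3 and SYT7 lie higher in HG than in LG, and STX3, DNM2 and STXBP5 lower, and for STX2 the order of the glucose groups is opposite without and with VPA.

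With VPA in both groups, further members higher in HGV than in LGV included SYT5 by 0.90 (FDR 0.00341), SYT12 by 0.89 (FDR 0.0169), SNPH by 0.86 (FDR 0.00891), SYTL2 by 0.95 (FDR 0.00856), VAMP1 by 0.57 (FDR 0.0219), VAMP5 by 0.90 (FDR 0.00223), STX12 by 0.35 (FDR 0.0397), SNAP29 by 0.32 (FDR 0.037) and CPLX1 by 0.37 (FDR 0.0482). Of these, SYT5, SYT12 and SNPH were among the 6 with too few reads for the test between HG and LG. VAMP2 and VAMP8, synaptobrevin and endobrevin, fell by 0.58 (FDR 0.0011) and 0.56 (FDR 0.00185) and had -0.34 (FDR 0.112) and -0.33 (FDR 0.0742) between HG and LG. Leaving out 1 library cost the call of CPLX1 in 5 of the 6 fits (FDR up to 0.187, without HGV replicate 1) and that of STX12 in 5 of 6 (up to 0.167, without LGV replicate 3), in both cases all but that without HGV replicate 3. It cost that of SNAP29 without HGV replicate 1 or 3 or LGV replicate 2 or 3 (up to 0.185), that of SYT12 without HGV replicate 1 or LGV replicate 2 or 3 (up to 0.0803), that of VAMP1 without HGV replicate 1 (0.111) or LGV replicate 2 (0.127) and that of SNPH without LGV replicate 3 (0.0615).

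Other genes of vesicle release, taken from 7 lists made from symbols, were read from the same fits. Of 79 listed genes 66 had a row. In HGV against HG 26 of the 66 were higher and 6 lower, and in LGV against LG 25 higher and 18 lower, with median log2 fold changes of 0.23 and 0.12. Of all tested genes 25.8% were higher and 20.2% lower in the first comparison, and 21.7% and 19.9% in the second. Of 7 genes for Rab3 and Rab27 GTPases, their effectors and DOC2 calcium sensors, 5 were higher in each comparison and 1 lower in LG, led in HG by DOC2A with 3.05 (FDR 1.76e-07). Of 14 priming and active zone genes, 6 were higher in each comparison, 1 was lower in HG and 4 in LG. ERC2, an active zone scaffold, had 4.21 (FDR 1.8e-05) in HG. It had 7, 4 and 3 reads in LG and 1, 8 and 1 in HG, so it could enter the table only by rising with VPA. RIMS4 and PCLO, counted as higher in both comparisons, also averaged under 10 reads in the untreated libraries. Of 11 vesicle membrane proteins, 6 were higher in HG and 7 in LG, with none and 2 lower, led by SYNGR1, synaptogyrin 1, with 3.56 (FDR 1.59e-08) in HG.

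Of 9 genes for SNARE disassembly and SM proteins, 3 were higher and 1 lower in HG and 1 higher and 2 lower in LG, with NAPA, the alpha-SNAP that recruits NSF, at 0.62 (FDR 0.000422) in HG. Of 12 other SNAREs, 3 were higher and 2 lower in HG and 2 higher and 5 lower in LG, with USE1, a SNARE of the endoplasmic reticulum, at -1.03 (FDR 0.000118) in HG. Of 9 exocyst genes, 1 was higher and 1 lower in HG and 2 were higher and 3 lower in LG, with EXOC6B at 0.42 (FDR 0.014) in HG. Of 4 endocytosis partners of dynamin, 2 were higher and 1 lower in each comparison, led by BIN1, amphiphysin 2, with 4.42 (FDR 2.13e-08) in HG. In the interaction none of the 66 was called.

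Summed over the 50 members, the level was 1094 to 1308 CPM in untreated and 1369 to 1512 CPM in VPA-treated libraries, so the groups did not overlap. The synaptotagmins and syntaphilin made small parts of it. The 8 synaptotagmins summed to 15.7 to 27.5 CPM in untreated and 62.1 to 93.9 in treated libraries. The 15 syntaxins summed to 422 to 517 and 540 to 585 CPM, which were apart, and the 7 VAMPs to 218 to 265 and 204 to 263 CPM, which overlapped.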

How the data were processed

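RNA-seq was performed on 12 HepG2 libraries, 3 in each of LG, HG, LGV and HGV. The authors deposited raw read counts per Ensembl gene, without normalization, from 50 nt single-end reads that were trimmed, aligned with STAR to GRCh37 and counted with featureCounts at a map quality of at least 10, and they left out genes averaging under 10 reads per sample (the lowest mean in the table was 10). The library kit was directional, and whether the counting used strand is not given in the sources used here. The members and lists were chosen with earlier results of these data known. The counts cover all 50 members, and the values of 2 of them are not reported here.

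Counts were tested with edgeR 4.0.16 (R 4.3.3; TMM factors, quasi-likelihood F test) over all genes with a mean of at least 10 reads in the libraries of a comparison, with a call at an FDR of at most 0.05. Standard errors were taken as the log2 fold change divided by the square root of F. Levels are CPM scaled with TMM factors over 12 libraries, or CPM per kilobase of exon (GENCODE 44 mapped to GRCh37, matched by identifier). Within each role the other members called with VPA or with glucose were named, and values per library were given for the 8 called members with the largest change in HG and a mean of at least 1 log2 CPM in a group, and for those that fell. In each list the called gene with the largest change in HG was named. Alternatives were DESeq2 1.42.0 and its size factors, library size, no filter, a filter of 1 CPM in at least 3 libraries, replicate number as a block, 1 fit of the 12 libraries, and leaving out each library. Both tests were tested on simulated data. Python 3.11.15, pandas 2.3.3, scipy 1.17.1 and matplotlib 3.10.9 were used for counts, sequences and plots.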

Additional observations from a re-analysis of the deposited data

Results flagged for a closer look

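STX2 stood out because its glucose groups were apart in opposite directions without and with VPA. It had 19.3, 18.5 and 19.8 CPM in LG and 16.4, 15.9 and 15.2 in HG, but 29.03, 31.3 and 31.7 CPM in LGV and 35.6, 32.7 and 36.1 in HGV. Neither glucose comparison passed the threshold, with log2 fold changes of -0.26 (standard error 0.15, FDR 0.208) and 0.16 (standard error 0.12, FDR 0.281). The difference between them, 0.46 on the log2 scale (standard error 0.16), had an unadjusted p of 0.0101 in edgeR's quasi-likelihood test of the interaction and an FDR of 0.264, so it did not pass either.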

How the results depend on the processing

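No called member reversed its direction under any alternative. The counts of called members stayed within 1.5 times the reported ones except between HG and LG, where leaving out 1 library gave 4 to 12 in place of 9. It gave 28 to 30 for HGV against HG (30 reported), 23 to 31 for LGV against LG (29), 15 to 23 for HGV against LGV (21) and 0 for the interaction. With the replicate block the counts were 32, 32, 8 and 22 for HGV against HG, LGV against LG, HG against LG and HGV against LGV, and 0 for the interaction, and the block cost the call of STX5 alone. Over all genes it gave 8229, 6971, 3351 and 7308 calls in place of 7456, 6638, 3813 and 6604, and 13 in place of 7 for the interaction, where DESeq2 gave 162. Correlations of deviations from the group means, across genes, were 0.241, 0.143 and -0.126 for HG and HGV libraries of the same number. For LG and LGV they were -0.013, 0.295 and -0.201. Libraries of different numbers gave -0.353 to 0.275 for HG and HGV and -0.387 to 0.409 for LG and LGV. With 3 libraries per group these values cannot settle whether the replicate numbers pair the libraries. Beside leaving out libraries, the other alternatives cost the call of STX8 in HGV against HG (DESeq2 and its size factors), SYT2 in LGV against LG (DESeq2), 3 members between HG and LG, and CPLX1 and SYT12 between HGV and LGV. Depth limits the 6 members with under 10 untreated reads, whose fold changes rest on few reads.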
